A study of Mus musculus with 12 samples.

Results

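The extracellular matrix of the heart is cut and shed by metalloproteases, and the genes of these enzymes and their inhibitors were followed here in RNA-seq read counts of mouse hearts. A gene was a member if its mouse symbol starts with Mmp, Timp, Adam, Adamts or Adamtsl followed by a number. This gave 84 of the 47729 genes in the count table, of which 23 were matrix metalloproteases (MMPs), 4 tissue inhibitors of metalloproteases (TIMPs), 33 ADAM proteases, 19 ADAMTS proteases and 5 ADAMTS-like proteins. The rule reads gene symbols alone. The 12 libraries came from hearts of male C57BL/6 mice that were 8 weeks old, with 3 libraries in each of 4 groups. Ang II + EHP-101 mice had angiotensin II (Ang II) from subcutaneous osmotic pumps over 28 days and oral EHP-101 at 20 mg/kg in the final 2 weeks. Ang II + losartan mice had the same infusion and losartan at 0.6 g/L in their drinking water over those weeks. Ang II mice had the infusion with vehicle. Control mice are taken as the saline-infused arm that the design text names, although their titles also carry the words Ang II. Ang II is a vasoconstrictor hormone with direct actions on heart cells through the AT1 receptor, which losartan blocks. EHP-101 is an oral preparation that activates the cannabinoid receptor CB2 and PPARγ, a nuclear receptor.

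MMPs are zinc endopeptidases that are made as inactive proenzymes, and most are secreted, while the membrane-type MMPs stay on the cell surface. TIMPs bind the active site of MMPs and, for some members, that of ADAM and ADAMTS proteases, and TIMP-2 together with membrane-type MT1-MMP (Mmp14) also serves to activate proMMP-2. ADAMs are membrane-anchored sheddases that release growth factors, cytokine receptors and Notch from the cell surface, ADAMTS proteases are secreted and cut proteoglycans, procollagens and other matrix proteins, and ADAMTS-like proteins share their ancillary domains but lack the protease domain.

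Each library held between 22155418 and 24040516 reads counted to genes, and the family took 0.0941% to 0.236% of them. Cardiomyocyte markers summed to between 55920 and 77520 CPM (counts scaled to a common library size) in each library, and the labels do not say which part of the heart was taken. The summed level of 8 atrial markers stood at 556 to 1204 CPM in Ang II + EHP-101 hearts, 93.0 to 2176 CPM in Ang II + losartan hearts, 1635 to 2929 CPM in Ang II hearts and 325 to 1949 CPM in Control hearts. Control replicate 2 lay apart from the rest, at -84.4 on the first principal component of all tested genes, against -12.7 to 32.4 for the others, and family reads took their lowest share there. Nothing in the labels says that replicates are separate animals, so p-values measure only how these samples differ among themselves, and that variation may be technical. These are bulk tissue libraries, in which fewer cells of a type and less RNA per cell cannot be told apart.

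Of the 84 members, 69 had at least 1 read and 52 had enough reads to be tested: 14 of 23 MMPs, 4 of 4 TIMPs, 13 of 33 ADAMs, 16 of 19 ADAMTS genes and 5 of 5 ADAMTS-like genes. The filter asks for a minimum level in as many libraries as a group holds, and 46 of the 52 passed it in all 3 libraries of every group. In the sum over the 12 libraries, 15 members had 0 reads, which allows a level of up to 0.0107 CPM for each (3 counts over all libraries, counting error alone). They were Mmp1a, Mmp1b, Mmp7, Mmp20, Adam6a, Adam7, Adam20, Adam24, Adam25, Adam26a, Adam26b, Adam28, Adam29, Adam34 and Adam39, among which most of the ADAMs are known from testis and epididymis. Mmp8, the collagenase of neutrophils, had 82 reads in all and was not tested. Its counts were 6, 23 and 2 reads in Ang II + EHP-101 hearts, 15, 4 and 2 reads in Ang II + losartan hearts, 5, 6 and 10 reads in Ang II hearts and 5, 2 and 2 reads in Control hearts, with the highest in the libraries of EHP-101 replicate 2 and losartan replicate 1.

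Levels were compared between genes as CPM per kilobase of exon (RPKM). Mmp2, which encodes gelatinase A, had the highest mean over the 12 libraries at 49 RPKM, and Timp2 followed at 41.1 RPKM. Timp3, whose product stays bound to the matrix, averaged 24.9 RPKM, and Adamtsl5 averaged 22.7 RPKM. The sheddase gene Adam9 averaged 21.7 RPKM, Mmp15 (MT2-MMP) 19.5 RPKM and Timp1 18.2 RPKM. The next were Adam10 at 14.8 RPKM, Adamtsl4 at 12.1 RPKM and Adam15 at 10.6 RPKM. In the plot of length-scaled levels the libraries of neighbouring genes overlap for each pair of neighbours, so the order is that of the means.

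**Figure D1:**
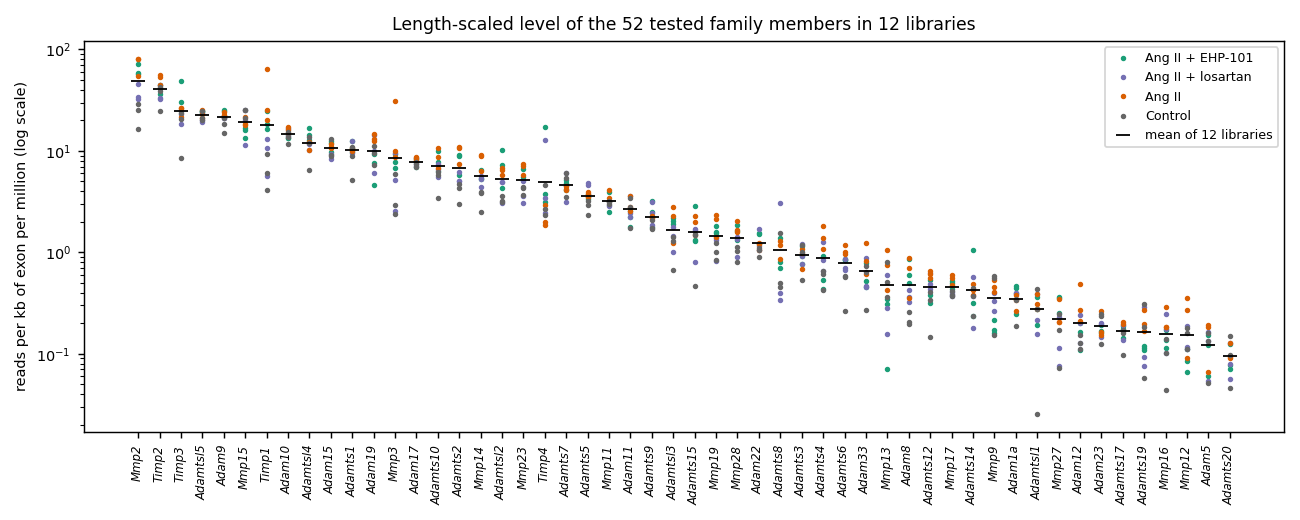
Each column is 1 of the 52 tested members, sorted by its mean, and each dot is 1 of the 12 libraries, on a log axis of RPKM, coloured by group, with a dash at the mean. Mmp2 at 49.0 and Timp2 at 41.1 lead, and Ang II dots lie above Control dots in Mmp2, Timp1 and Mmp3.

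Many MMP genes lie side by side. Mmp13, Mmp12, Mmp1b, Mmp3, Mmp1a, Mmp10, Mmp8, Mmp27, Mmp20 and Mmp7 share 427.1 kb of chromosome 9 (chr9:7272514-7699585, GRCm38, GENCODE M21), with no other protein-coding gene between them. These 10 genes differed widely in reads: Mmp3 had 4467 in all, Mmp13 366, Mmp12 321, Mmp27 138, Mmp8 82 and Mmp10 3, while Mmp1a, Mmp1b, Mmp20 and Mmp7 had 0. The letters of an AP-1 motif (TGANTCA), the binding site of Fos and Jun proteins, were found in the RefSeq promoter windows (250 bases before to 50 after the transcript start, GRCm38.p6, both strands) of 8 of the 10 genes, against 8.97% of all 27025 genes with a window. The letters of a TATA box (TATAAA) were found in 9 of the 10, against 15.7% of all genes, and both motifs in 8 of 10, against 1.84%. The TATA letters begin at -16, -7 and -3 from the annotated start in Mmp13, Mmp3 and Mmp8. A GC box (GGGCGG) was found in 0 of the 10, against 38.2% of all genes. The 100 bases before a transcript start of each of the 3 cluster genes with most reads are shown because they carry these motifs, in capitals, at chr9:7445722-7445821, chr9:7272414-7272513 and chr9:7347274-7347373, all on the plus strand:
Mmp3: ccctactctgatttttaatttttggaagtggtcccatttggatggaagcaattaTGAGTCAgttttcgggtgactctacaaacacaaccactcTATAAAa
Mmp13: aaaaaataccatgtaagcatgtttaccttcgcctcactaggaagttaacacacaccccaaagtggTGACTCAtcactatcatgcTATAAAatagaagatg
Mmp12: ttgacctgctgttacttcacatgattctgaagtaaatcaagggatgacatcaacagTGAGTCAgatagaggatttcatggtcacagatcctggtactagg
The Mmp12 stretch precedes a start inside the gene, which GENCODE M21 places at chr9:7344381-7369499, and its window was picked because it holds AP-1 letters. The 10 genes have 12 windows, and a gene was counted if any of its windows held a motif. The TATA letters of Mmp12 begin at base 5 from that start and so lie outside the stretch shown.

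**Figure D2:**
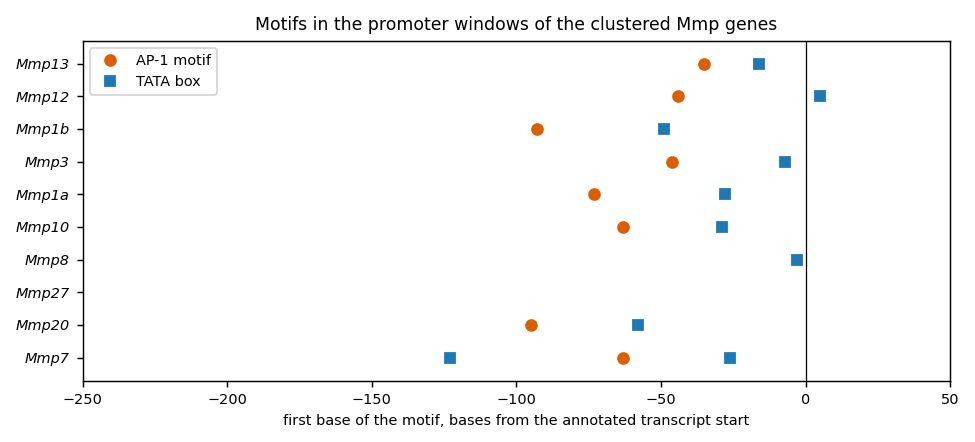
Rows are the 10 MMP genes of the chromosome 9 cluster in genomic order, and the horizontal axis is the distance in bases of a motif's first letter from the annotated transcript start (vertical line). AP-1 letters (circles) lie between -95 and -35 in 8 genes and TATA letters (squares) between -123 and 5 in 9, while Mmp27 has neither.

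Outside the cluster, AP-1 letters were found in the windows of 5 of 43 members and GC boxes in 27 of 43. Of the 4 genes called under Ang II, Timp1, Mmp14 and Adamts2 have a window in the RefSeq table, and Mmp2 is named only. All 3 windows hold GC boxes, printed here in capitals in the 100 bases before the start, at chrX:20870066-20870165, chr14:54431498-54431597 and chr11:50601985-50602084 on the plus strand (GRCm38.p6), where CCGCCC is the same box on the other strand:
Timp1: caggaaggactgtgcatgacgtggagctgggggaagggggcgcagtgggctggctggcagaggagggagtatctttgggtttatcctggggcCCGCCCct
Mmp14: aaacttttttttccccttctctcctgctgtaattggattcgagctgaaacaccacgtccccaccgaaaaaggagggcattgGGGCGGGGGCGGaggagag
Adamts2: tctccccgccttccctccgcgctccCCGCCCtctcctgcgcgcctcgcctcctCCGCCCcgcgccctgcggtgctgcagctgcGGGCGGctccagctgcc
None of these 3 stretches holds TGANTCA. A match in letters describes the sequence and shows no binding.

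The first comparison asked what 28 days of Ang II did to the family. Mmp2, Mmp14, Adamts2 and Timp1 rose in Ang II hearts relative to Control hearts: the gene of gelatinase A, the membrane protease that activates it, a procollagen N-proteinase and a secreted inhibitor of MMPs. Mean levels were 3.07-fold, 2.39-fold, 2.4-fold and 5.65-fold those of Control. These 4 of 52 tested members passed an edgeR adjusted p of 0.05, with 0 lower, where 0.541% of all 15336 tested genes passed in either direction, 0.515% higher and 0.0261% lower. Counting these 4, 24 of the 52 had every Ang II library above every Control library and 0 had the reverse, where the background is 12.3% higher and 10.3% lower. The median log2 fold change of the 52 was 0.41, and that of all tested genes was 0.00. At an unadjusted p under 0.05 stood 21 members, all higher, against 9.09% of all genes higher and 8.53% lower.

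Among the gelatinases, which cut denatured collagen and basement membrane collagen, Mmp2 stood at 197, 195 and 244 CPM in Ang II + EHP-101 hearts, 109, 154 and 115 CPM in Ang II + losartan hearts, 272, 183 and 275 CPM in Ang II hearts and 84.9, 55.9 and 97 CPM in Control hearts. Every Ang II library lay above every Control library, the losartan libraries lay between them without overlap, and the EHP-101 libraries lay within the Ang II range. The log2 fold change of Ang II over Control was 1.62 ± 0.23 (SE, edgeR adjusted p = 0.00988). Mmp2 lies at chr8:92827291-92853420 (GRCm38, GENCODE M21), and its exons overlap those of no other annotated gene. Mmp9, gelatinase B, known from neutrophils and macrophages, had a mean of 0.353 RPKM and stood at 0.761, 0.608 and 0.569 CPM in Ang II + EHP-101 hearts, 1.16, 1.42 and 0.928 CPM in Ang II + losartan hearts, 1.9, 1.45 and 1.61 CPM in Ang II hearts and 2.09, 0.538 and 1.96 CPM in Control hearts. Ang II and Control libraries overlapped, with a log2 fold change of 0.09 ± 0.38 (edgeR adjusted p = 0.912), while each EHP-101 library lay below each Ang II library.

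Of the 4 tested membrane-type MMPs, edgeR called Mmp14 alone, and limma-voom with quality weights also called Mmp15 and Mmp17. Mmp14 stood at 32.3, 31.6 and 38.2 CPM in Ang II + EHP-101 hearts, 31.6, 33.5 and 26.4 CPM in Ang II + losartan hearts, 54.4, 38 and 53.4 CPM in Ang II hearts and 22.7, 15 and 23.3 CPM in Control hearts. All Ang II libraries were above all Control libraries, and both treated groups lay above Control and at or below the lowest Ang II library except for EHP-101 replicate 3. Its log2 fold change in Ang II over Control was 1.25 ± 0.19 (edgeR adjusted p = 0.0142), and the gene lies at chr14:54431612-54445364. Mmp15 averaged 104 ± 11.3 CPM in Ang II hearts and 129.8 ± 13.7 CPM in Control hearts (SD, n = 3 each), with overlapping libraries and a log2 fold change of -0.32 ± 0.22 (edgeR adjusted p = 0.455). Mmp16 and Mmp17 had log2 fold changes of 1.17 and 0.49 with groups that did not overlap, and neither passed the adjusted threshold in edgeR.

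Mmp3, stromelysin-1, which cuts proteoglycans and activates other proMMPs, had 1 Ang II library far above the rest. It stood at 14, 16.7 and 12.3 CPM in Ang II + EHP-101 hearts, 17.3, 9.37 and 4.6 CPM in Ang II + losartan hearts, 17.9, 15.5 and 55.7 CPM in Ang II hearts and 10.7, 4.25 and 5.26 CPM in Control hearts. Ang II replicate 3 was the high one, the other two Ang II libraries and the 3 EHP-101 libraries lay above the highest Control, and the losartan libraries overlapped Control. The log2 fold change of 2.14 ± 0.56 did not pass the adjusted threshold in edgeR (edgeR adjusted p = 0.128), while DESeq2 called Mmp3. Mmp13, the main interstitial collagenase of the mouse, stood at 0.931, 0.187 and 0.832 CPM in Ang II + EHP-101 hearts, 0.418, 0.753 and 1.6 CPM in Ang II + losartan hearts, 1.14, 1.99 and 2.85 CPM in Ang II hearts and 1.38, 0.969 and 2.13 CPM in Control hearts. It overlapped between Ang II and Control hearts. Mmp12, macrophage elastase, stood at 0.804, 0.608 and 0.482 CPM in Ang II + EHP-101 hearts, 1.35, 0.836 and 0.801 CPM in Ang II + losartan hearts, 1.97, 0.665 and 2.55 CPM in Ang II hearts and 1.17, 0.807 and 1.29 CPM in Control hearts. Mmp12 also overlapped between them, both genes had few reads, and neither was called, with log2 fold changes of 0.41 ± 0.52 and 0.66 ± 0.42 (edgeR adjusted p = 0.697 and 0.416).

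The remaining MMPs were not called by edgeR, while DESeq2 and limma-voom with quality weights called Mmp19, Mmp23 and Mmp28. Mmp19 averaged 6.94 ± 1.71 CPM in Ang II hearts and 3.64 ± 0.714 CPM in Control hearts, and Mmp28 (epilysin) 6.81 ± 0.893 CPM in Ang II hearts and 3.81 ± 0.625 CPM in Control hearts. Mmp23 averaged 15.9 ± 1.99 CPM in Ang II hearts and 9.63 ± 0.938 CPM in Control hearts (SD, n = 3 each). In these 3 genes the groups did not overlap, and none passed the adjusted threshold in edgeR, with adjusted p = 0.118, 0.114 and 0.115. Mmp11 and Mmp27, the last 2 tested MMPs, had log2 fold changes of 0.21 and 0.58. The exons of Mmp19 share 22.3% of their bases with Tmem198b and those of Mmp28 share 12% with another gene, so their reads are uncertain to that extent in these unstranded libraries.

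Of the 4 inhibitor genes edgeR called 1 under Ang II. Timp1, an inducible secreted inhibitor, stood at 16.4, 14.7 and 22.1 CPM in Ang II + EHP-101 hearts, 11.5, 9.49 and 5.06 CPM in Ang II + losartan hearts, 22.6, 18.1 and 56.4 CPM in Ang II hearts and 5.39, 8.29 and 3.63 CPM in Control hearts. All Ang II libraries were above all Control libraries, Ang II replicate 3 was the highest by a wide margin as it was for Mmp3, and the losartan libraries overlapped Control. Its log2 fold change in Ang II over Control was 2.50 ± 0.45 (edgeR adjusted p = 0.0299), and it was 1.84 without Ang II replicate 3 (edgeR adjusted p = 0.116). The gene lies at chrX:20870166-20874735. Timp2 stood at 141, 162 and 174 CPM in Ang II + EHP-101 hearts, 126, 174 and 129 CPM in Ang II + losartan hearts, 216, 175 and 208 CPM in Ang II hearts and 167, 95.8 and 153 CPM in Control hearts. The Ang II libraries were above the Control libraries by a small margin, and the log2 fold change of 0.52 ± 0.20 was not called (edgeR adjusted p = 0.233).

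Timp3, which also inhibits ADAM17 and the aggrecanases, stood at 248, 397 and 203 CPM in Ang II + EHP-101 hearts, 205, 189.8 and 149 CPM in Ang II + losartan hearts, 216, 176 and 218 CPM in Ang II hearts and 166, 69.3 and 191 CPM in Control hearts. Control replicate 2 was the lowest, EHP-101 replicate 2 the highest, and Ang II and Control libraries overlapped (log2 fold change 0.51 ± 0.32, edgeR adjusted p = 0.41). Its exons share 21.3% of their bases with Syn3 on the other strand. Timp4, the inhibitor known for its expression in heart, stood at 22.3, 101 and 18.3 CPM in Ang II + EHP-101 hearts, 75.8, 20.2 and 14.5 CPM in Ang II + losartan hearts, 11.1, 17.4 and 11.7 CPM in Ang II hearts and 15.7, 27.1 and 13.7 CPM in Control hearts. Single libraries stood out, namely EHP-101 replicate 2 and losartan replicate 1, which were also the lowest on the second principal component of all genes, at -41.3 and -29.9. The part of those libraries' other differences in the Timp4 values was not tested. Timp4 in Ang II over Control had a log2 fold change of -0.49 ± 0.74 (edgeR adjusted p = 0.75).

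**Figure D3:**
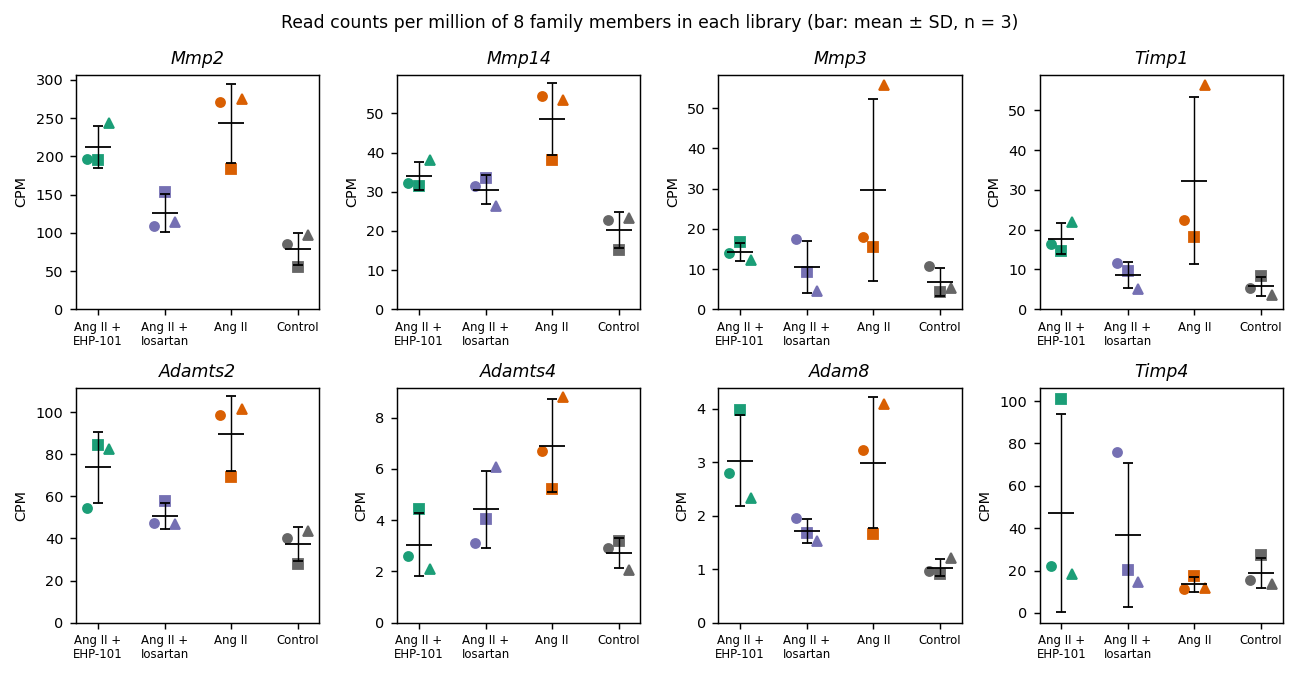
Each panel shows 1 gene, with a marker for each library (circle, square and triangle for replicates 1, 2 and 3), the group mean as a line and the SD (n = 3) as whiskers, on a linear axis of CPM. Mmp2, Mmp14 and Adamts2 separate Ang II from Control in every library, Mmp3 and Timp1 have a single high Ang II library, and Timp4 has single high libraries in both treated groups.

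None of the 8 tested somatic ADAMs with a catalytic motif was called under Ang II by edgeR in the main fit, and 3 had an unadjusted p under 0.05. DESeq2, limma-voom with quality weights and edgeR with no filter on low counts each called Adam8 and Adam12. Without Ang II replicate 2 edgeR called Adam8. All 8 had a positive log2 fold change, and 5 of them did not overlap between groups. Adam8, known from leukocytes, stood at 2.79, 3.98 and 2.32 CPM in Ang II + EHP-101 hearts, 1.95, 1.67 and 1.52 CPM in Ang II + losartan hearts, 3.23, 1.66 and 4.09 CPM in Ang II hearts and 0.96, 0.915 and 1.21 CPM in Control hearts. Every Ang II library lay above every Control library, with a log2 fold change of 1.53 ± 0.33 (edgeR adjusted p = 0.068), and the EHP-101 libraries lay within the Ang II range. Adam12, a sheddase of heparin-binding EGF-like growth factor, stood at 1.14, 2.1 and 1.75 CPM in Ang II + EHP-101 hearts, 1.35, 2.13 and 2.53 CPM in Ang II + losartan hearts, 2.85, 2.2 and 5.14 CPM in Ang II hearts and 1.17, 1.62 and 1.34 CPM in Control hearts. Its Ang II libraries were above Control, highest in replicate 3, with a log2 fold change of 1.31 ± 0.35 (edgeR adjusted p = 0.128).

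The sheddases with the highest counts were not called by edgeR or DESeq2, while limma-voom with quality weights called Adam9 and Adam15. Adam10, the main constitutive sheddase of Notch, averaged 79 ± 5.59 CPM in Ang II hearts and 66.6 ± 8.8 CPM in Control hearts, and Adam17, which releases TNF, averaged 60.3 ± 1.81 CPM in Ang II hearts and 52.8 ± 3.35 CPM in Control hearts (SD, n = 3 each). Their log2 fold changes were 0.25 ± 0.12 and 0.19 ± 0.11 (edgeR adjusted p = 0.321 and 0.382). Adam9 averaged 95 ± 4.22 CPM in Ang II hearts and 74.7 ± 12.4 CPM in Control hearts, without overlap, with a log2 fold change of 0.35 ± 0.13 (edgeR adjusted p = 0.222). Adam15 averaged 68.2 ± 3.65 CPM in Ang II hearts and 63.6 ± 14.4 CPM in Control hearts with overlapping libraries and a log2 fold change of 0.10 ± 0.16 (edgeR adjusted p = 0.768). Adam19, a protease required for heart development in the mouse, averaged 95.2 ± 8.4 CPM in Ang II hearts and 65.9 ± 14 CPM in Control hearts without overlap, and its log2 fold change of 0.53 ± 0.30 was not called (edgeR adjusted p = 0.358). Adam33 had 0.68 with overlapping groups, and the 3 somatic ADAMs that lack a catalytic motif, Adam11, Adam22 and Adam23, stood between -0.08 and 0.19 on the log2 scale. The reproductive-tract ADAMs Adam1a and Adam5 had few reads, with log2 fold changes of 0.15 and 0.32, and 63.7% of the Adam1a exon bases are shared with a gene on the same strand.

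Of the ADAMTS proteases, edgeR called Adamts2, which removes the N-propeptide of fibrillar procollagens. It stood at 54.6, 84.5 and 82.5 CPM in Ang II + EHP-101 hearts, 47.5, 57.8 and 47 CPM in Ang II + losartan hearts, 98.8, 69.3 and 102 CPM in Ang II hearts and 40.3, 28.1 and 43.8 CPM in Control hearts. No Ang II library overlapped Control, and the losartan libraries lay just above Control and below Ang II. The log2 fold change of Ang II over Control was 1.26 ± 0.21 (edgeR adjusted p = 0.0239), and the gene lies at chr11:50602084-50807573. The other two procollagen N-proteinases, Adamts3 and Adamts14, had log2 fold changes of 0.01 and 0.30 with overlapping groups.

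None of the 7 ADAMTS genes that cut proteoglycans such as aggrecan and versican was called by edgeR in the main fit, and 2 had an unadjusted p under 0.05. DESeq2 called Adamts4, as did edgeR with no filter on low counts and edgeR with an atrial marker score as covariate. The limma-voom fit with quality weights called Adamts4 and Adamts5. Adamts4, an aggrecanase, stood at 2.58, 4.44 and 2.1 CPM in Ang II + EHP-101 hearts, 3.11, 4.06 and 6.07 CPM in Ang II + losartan hearts, 6.68, 5.19 and 8.81 CPM in Ang II hearts and 2.92, 3.18 and 2.04 CPM in Control hearts. Each Ang II library was above each Control and each EHP-101 library, with a log2 fold change over Control of 1.35 ± 0.32 (edgeR adjusted p = 0.0988). Adamts5, the other main aggrecanase of the mouse, averaged 40.2 ± 2.31 CPM in Ang II hearts and 30.6 ± 4.78 CPM in Control hearts (log2 fold change 0.39 ± 0.14, edgeR adjusted p = 0.21). Adamts1 averaged 54.9 ± 2.14 CPM in Ang II hearts and 44.2 ± 15.7 CPM in Control hearts, and Adamts9 33.3 ± 0.84 CPM in Ang II hearts and 27.7 ± 3.05 CPM in Control hearts (SD, n = 3 each). Their log2 fold changes were 0.31 ± 0.22 and 0.27 ± 0.21, with Adamts1 overlapping between groups and neither called (edgeR adjusted p = 0.456 and 0.499).

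Adamts15 and Adamts8 varied strongly between libraries of a group. Adamts15 averaged 19.9 ± 4.3 CPM in Ang II hearts and 12.1 ± 6.25 CPM in Control hearts, where Control replicate 2 was lowest, and Adamts20 was low in all groups, with a log2 fold change of 0.11. Adamts8 stood at 3.68, 6.45 and 3.24 CPM in Ang II + EHP-101 hearts, 1.58, 14 and 1.81 CPM in Ang II + losartan hearts, 6.0, 3.95 and 5.47 CPM in Ang II hearts and 2.3, 2.1 and 7.18 CPM in Control hearts, and a single losartan library was far above the rest. Their log2 fold changes in Ang II over Control were 0.72 ± 0.43 and 0.40 ± 0.74 (edgeR adjusted p = 0.388 and 0.796). Of the other ADAMTS genes, Adamts6 came closest to a call by edgeR: it averaged 8.17 ± 0.952 CPM in Ang II hearts and 3.69 ± 1.42 CPM in Control hearts, with a log2 fold change of 1.14 ± 0.24 (edgeR adjusted p = 0.0653). Adamts12 and Adamts10 had log2 fold changes of 1.01 and 0.75, also without overlap between groups, and Adamts7, Adamts17 and Adamts19 had -0.21, 0.40 and 0.17. DESeq2 called Adamts6 and Adamts12, and limma-voom with quality weights called Adamts6, Adamts12 and Adamts10. Adamts6 was also called by edgeR with no filter on low counts.

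The 5 ADAMTS-like genes, of which several are known to bind fibrillin microfibrils, had log2 fold changes between 0.07 and 0.93, and none was called by edgeR, with 2 under an unadjusted p of 0.05, while DESeq2 called Adamtsl2. Adamtsl2 stood at 34.6, 81.1 and 58.2 CPM in Ang II + EHP-101 hearts, 24.7, 39.8 and 39.4 CPM in Ang II + losartan hearts, 54.5, 45.8 and 52.3 CPM in Ang II hearts and 25.9, 28.9 and 25.3 CPM in Control hearts. Its Ang II libraries were above all Control libraries, with a log2 fold change of 0.93 ± 0.26 (edgeR adjusted p = 0.136), and EHP-101 replicate 2 was the highest of all. Adamtsl4 averaged 48.4 ± 5.08 CPM in Ang II hearts and 45.1 ± 15.6 CPM in Control hearts, and Adamtsl5 averaged 109 ± 9.38 CPM in Ang II hearts and 104 ± 11.1 CPM in Control hearts. Both overlapped between the groups (log2 fold changes 0.10 ± 0.22 and 0.07 ± 0.12, edgeR adjusted p = 0.827 and 0.777), and so did Adamtsl1 at 0.38 and Adamtsl3 at 0.89.

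The 4 calls depended on single libraries. Without Ang II replicate 1, and without Ang II replicate 3, 0 members were called, with an edgeR adjusted p for Mmp2 of 0.056 and 0.0672. Without any 1 of the Control libraries 2 were called, Mmp2 and Mmp14. Of all genes, 83 were called with every library, 8 without Ang II replicate 1 and 8 without Ang II replicate 3. Leaving out Control replicate 1, 2 or 3 gave 25, 15 and 21 genes. Whichever of the 6 Ang II and Control libraries was left out, the log2 fold change of Mmp2 stayed between 1.42 and 1.80, while that of Timp1 ran from 1.84 without Ang II replicate 3 to 2.84 without Control replicate 2.

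The second comparison set Ang II + EHP-101 hearts against Ang II hearts. No member was called (0 of 52, edgeR), and the background was 0, since 0 of all 15336 genes passed. At an unadjusted p under 0.05 stood 7 lower members, against 5.11% of all genes, and 1 higher member, against 2.11%. The 7 were Adamts4, Mmp9, Mmp12, Adam19, Adam12, Mmp13 and Mmp14, all proteases, and the higher member was the inhibitor gene Timp4. The count of 8 was 4 without Ang II replicate 3 and 14 without Control replicate 2. Over all genes, 1108 of 15336 stood at that p, 590 of 15551 without Ang II replicate 3 and 1778 of 15622 without Control replicate 2. In 12 members every EHP-101 library was below every Ang II library and in 2 above, where the background is 9.74% lower and 7.01% higher, and the median log2 fold change was -0.19, against 0.00 for all genes. DESeq2, limma-voom, limma-voom with quality weights and each other setting also gave 0 members.

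The smallest p was that of Adamts4, which averaged 3.04 ± 1.24 CPM in Ang II + EHP-101 hearts and 6.89 ± 1.82 CPM in Ang II hearts (SD, n = 3 each; log2 fold change -1.18 ± 0.32, edgeR adjusted p = 0.365). Mmp9 averaged 0.646 ± 0.102 CPM in Ang II + EHP-101 hearts and 1.66 ± 0.226 CPM in Ang II hearts, and Mmp12 0.631 ± 0.162 CPM in Ang II + EHP-101 hearts and 1.73 ± 0.966 CPM in Ang II hearts, with log2 fold changes of -1.35 ± 0.41 and -1.45 ± 0.44 (edgeR adjusted p = 0.429 for both). Mmp9 did not overlap between the groups, while in Mmp12 an Ang II library fell within the EHP-101 range. Adam19, which stood at 66.8, 33 and 53.9 CPM in Ang II + EHP-101 hearts and 92.4, 88.5 and 105 CPM in Ang II hearts, had a log2 fold change of -0.89 ± 0.30 (edgeR adjusted p = 0.479). Adam12 and Mmp13 had -1.03 ± 0.35 and -1.60 ± 0.56 (edgeR adjusted p = 0.489 and 0.523), also without overlap. In 7 of 8 atrial markers the EHP-101 libraries were below the Ang II libraries without overlap, against 9.74% of all genes. Of these 8 markers 1 had an unadjusted p under 0.05, against 5.11% of all genes lower, and 0 were called by edgeR. With the mean centred log2 CPM of those 8 markers (the atrial score) as a covariate the log2 fold change was -0.81 for Mmp9 and -1.59 for Adamts4.

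The 4 members called under Ang II overlapped between these groups. Mmp2 averaged 212 ± 27.7 CPM in Ang II + EHP-101 hearts and 243 ± 51.9 CPM in Ang II hearts, with a log2 fold change of -0.20 ± 0.22. Mmp14 had -0.51 ± 0.18, Adamts2 -0.28 ± 0.21 and Timp1 -0.87 ± 0.41 (edgeR adjusted p = 0.952 for Mmp2, 0.533 for Mmp14, 0.90 for Adamts2 and 0.724 for Timp1). Timp4 had a log2 fold change of 1.82 ± 0.75 (edgeR adjusted p = 0.624), with EHP-101 replicate 2 far above the other two EHP-101 libraries. Adam8, Adam9 and Adam15 had log2 fold changes between 0.01 and 0.06.

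The third comparison set Ang II + losartan hearts against Ang II hearts. Again no member was called (0 of 52, edgeR) and the background was 0 of 15336 genes. At an unadjusted p under 0.05 stood 13 members, all lower, against 6.14% of all genes lower and 2.26% higher. They took in Timp1, Mmp2, Adamts2 and Mmp14, each of which was called under Ang II. The count of 13 was 8 without Ang II replicate 3 and 7 with the atrial score as a covariate. Over all genes, 1289 of 15336 stood at that p, 632 of 15551 without Ang II replicate 3 and 1192 of 15336 with the atrial score. In 14 members every losartan library was below every Ang II library and in 1 above, where the background is 10.5% lower and 9.22% higher, and the median log2 fold change was -0.35, against 0.00 for all genes. DESeq2 called 4 members lower (Adamts2, Mmp2, Mmp23 and Timp1), limma-voom 0 and limma-voom with quality weights 7. Over all genes DESeq2 called 103 lower and 5 higher, and quality weights 473 lower and 136 higher. This comparison and the preceding ones share the Ang II libraries, so a high or low Ang II value enters each of them.

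Timp1 averaged 8.69 ± 3.31 CPM in Ang II + losartan hearts and 32.3 ± 20.9 CPM in Ang II hearts (log2 fold change -1.90 ± 0.43, edgeR adjusted p = 0.226). Leaving out Ang II replicate 3 gave -1.23 for Timp1. Mmp2 averaged 126 ± 24.3 CPM in Ang II + losartan hearts and 243 ± 51.9 CPM in Ang II hearts (-0.95 ± 0.22, edgeR adjusted p = 0.242), and Adamts2 50.8 ± 6.06 CPM in Ang II + losartan hearts and 89.9 ± 17.9 CPM in Ang II hearts (-0.82 ± 0.21, edgeR adjusted p = 0.284). In each of these 3 genes all losartan libraries lay below all Ang II libraries. Mmp23, a membrane-bound MMP, had -0.80 ± 0.18, Mmp14 -0.67 ± 0.18 and Mmp19 -0.75 ± 0.24 on the log2 scale (edgeR adjusted p = 0.234, 0.316 and 0.378), likewise without overlap. Mmp3, at -1.51 ± 0.55, overlapped between the groups. Atrial marker sums were also lower in 2 of 3 losartan libraries than in any Ang II library. With the atrial score as a covariate the log2 fold changes were -0.52 for Mmp2, -0.54 for Adamts2, -0.30 for Mmp14 and -1.87 for Timp1.

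Adamts4 had a log2 fold change of -0.64 ± 0.31, Mmp9 -0.50 ± 0.39, Mmp12 -0.81 ± 0.42, Mmp13 -1.10 ± 0.54 and Adam19 -0.39 ± 0.29, and none of these 5 lay under an unadjusted 0.05. Adam10, Adam17 and Adam9 stayed between -0.13 and -0.02, and Adamts1, Adamts5, Adamts8 and Adamts9 between 0.07 and 0.23. Timp4 had 1.46 ± 0.74, with losartan replicate 1 at 75.8 CPM and the other two at 20.2 and 14.5 CPM.

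**Figure D4:**
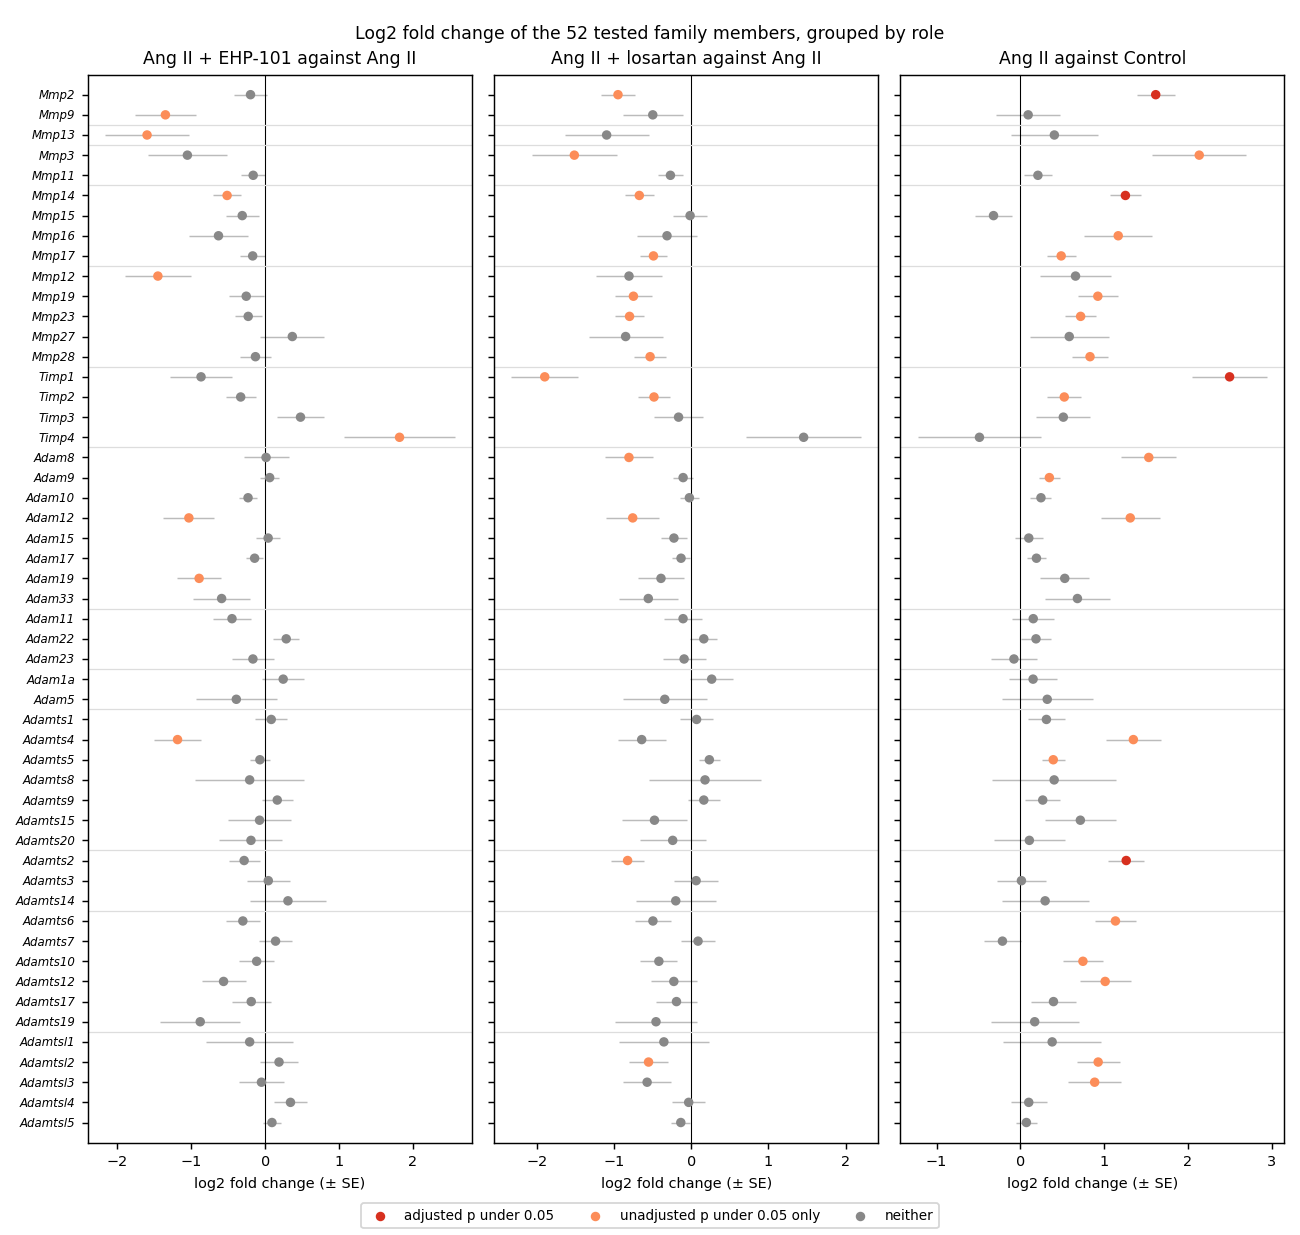
Points are log2 fold changes with SE for the 52 tested members, in rows grouped by role, for Ang II + EHP-101 against Ang II, Ang II + losartan against Ang II, and Ang II against Control. The 4 members with an adjusted p under 0.05 (red) are all in the Ang II against Control panel. Of the 52 points, 36 lie left of 0 under EHP-101, 43 left of 0 under losartan and 48 right of 0 under Ang II.

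Set against Control, Ang II + EHP-101 hearts had 1 called member, Mmp2 (1 of 52, where 0.398% of all genes were called in either direction, 0.300% higher and 0.0978% lower). It averaged 212 ± 27.7 CPM in Ang II + EHP-101 hearts and 79.2 ± 21.1 CPM in Control hearts (log2 fold change 1.42 ± 0.23, edgeR adjusted p = 0.0255). The call was lost without Control replicate 1, without Control replicate 3 and without any 1 of the EHP-101 libraries, where the edgeR adjusted p ran from 0.0535 to 0.0852. The next were Adam8 at 1.55 ± 0.33, Adamts2 at 0.98 ± 0.21, Adamtsl2 at 1.12 ± 0.26, Mmp14 at 0.74 ± 0.19 and Timp1 at 1.63 ± 0.44 on the log2 scale, with edgeR adjusted p between 0.0762 and 0.121. At an unadjusted p under 0.05 stood 16 higher and 2 lower members, against 8.76% and 8.15% of all genes. The 2 lower members were Mmp9 and Mmp15, with log2 fold changes of -1.25 and -0.63. Of the 52 members, 19 lay above Control in every EHP-101 library and 3 below, where the background is 10.7% and 10.4%.

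Ang II + losartan hearts had 0 called members against Control (edgeR, background 0 of 15336), and 5 had an unadjusted p under 0.05, all higher, against 5.54% of all genes higher and 5.16% lower. The count of 5 was 8 without EHP-101 replicate 2, 9 without losartan replicate 3, 10 without Control replicate 3 and 14 with the atrial score. Over all genes, 1640 of 15336 stood at that p in the main fit. In those settings, in that order, the all-gene counts were 1529 of 15592, 1515 of 15597, 3392 of 15610 and 3521 of 15336. This comparison shares the Control libraries with the preceding ones. The smallest p was that of Adamts5, at 47.3 ± 6.52 CPM in Ang II + losartan hearts and 30.6 ± 4.78 CPM in Control hearts (log2 fold change 0.63 ± 0.14, edgeR adjusted p = 0.456). Mmp14, Mmp2, Adamts6, Adamts12 and Adamts4 followed at 0.58, 0.67, 0.64, 0.79 and 0.71, all with that adjusted p. DESeq2 called Adamts5 alone, and limma-voom with and without quality weights called 0. Groups did not overlap in 9 members, all higher, where the background is 8.27% higher and 7.09% lower.

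The treatments were also set against each other, and 0 members were called for Ang II + EHP-101 over Ang II + losartan by edgeR, DESeq2 or limma-voom (edgeR background 0 of 15336). At an unadjusted p under 0.05 stood 7 higher members and 1 lower (Adamts5), against 3.07% and 2.97% of all genes. The count of 8 was 13 without Control replicate 2 and 5 without either EHP-101 replicate 3 or losartan replicate 3. Over all genes, 927 of 15336 stood at that p in the main fit. In those settings, in that order, the all-gene counts were 1592 of 15622, 860 of 15590 and 659 of 15597. Mmp2 averaged 212 ± 27.7 CPM in Ang II + EHP-101 hearts and 126 ± 24.3 CPM in Ang II + losartan hearts, without overlap (log2 fold change 0.75 ± 0.22, edgeR adjusted p = 0.606). Mmp23 had 0.57 ± 0.19, Adamtsl2 0.74 ± 0.26, Adam8 0.82 ± 0.32, Mmp27 1.22 ± 0.47 and Adamts2 0.54 ± 0.21 on the log2 scale, with edgeR adjusted p between 0.698 and 0.746. Groups did not overlap in 10 higher and 1 lower member, where the background is 6.57% and 6.74%.

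Summed over the whole family, MMP messages per length stood at 98.3 to 118 RPKM in Ang II + EHP-101 hearts, 70.0 to 89.4 RPKM in Ang II + losartan hearts, 105 to 157 RPKM in Ang II hearts and 52.9 to 72.4 RPKM in Control hearts. TIMP messages stood at 89.0 to 124 RPKM in Ang II + EHP-101 hearts, 59.5 to 83.4 RPKM in Ang II + losartan hearts, 89.8 to 146 RPKM in Ang II hearts and 47.0 to 72.1 RPKM in Control hearts. Both sums were higher in every Ang II library than in every Control library. In CPM, without the length scaling, TIMP messages summed to 417 to 675 in Ang II + EHP-101 hearts, 297 to 419 in Ang II + losartan hearts, 386 to 494 in Ang II hearts and 201 to 362 in Control hearts, where an EHP-101 library was the highest. The ratio of MMP to TIMP message was 1.15, 0.792 and 1.21 in Ang II + EHP-101 hearts, 0.839, 1.09 and 1.27 in Ang II + losartan hearts, 1.24, 1.17 and 1.08 in Ang II hearts and 1.0, 1.12 and 1.04 in Control hearts, so all groups overlapped.

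Mmp2 made up 57.4% to 61.3% of the MMP sum in Ang II + EHP-101 hearts, 45.0% to 51.0% in Ang II + losartan hearts, 51.6% to 59.3% in Ang II hearts and 31.3% to 39.8% in Control hearts. The EHP-101 and Ang II ranges overlap, and the losartan range lies between those of Ang II and Control. Timp1 supplied 13.4% to 25.5% of the TIMP sum in Ang II + EHP-101 hearts, 9.58% to 15.6% in Ang II + losartan hearts, 22.7% to 43.6% in Ang II hearts and 5.90% to 19.8% in Control hearts. ADAM messages summed to 74.6 to 81.9 RPKM in Ang II hearts and 60.1 to 66.7 RPKM in Control hearts, and ADAMTS messages to 41.5 to 50.7 RPKM in Ang II hearts and 22.2 to 37.9 RPKM in Control hearts. ADAMTS-like messages summed to 45.6 to 53.4 RPKM in Ang II + EHP-101 hearts, 36.3 to 40.0 RPKM in Ang II + losartan hearts, 42.3 to 44.4 RPKM in Ang II hearts and 35.5 to 39.9 RPKM in Control hearts, and here the EHP-101 libraries were the highest.

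**Figure D5:**
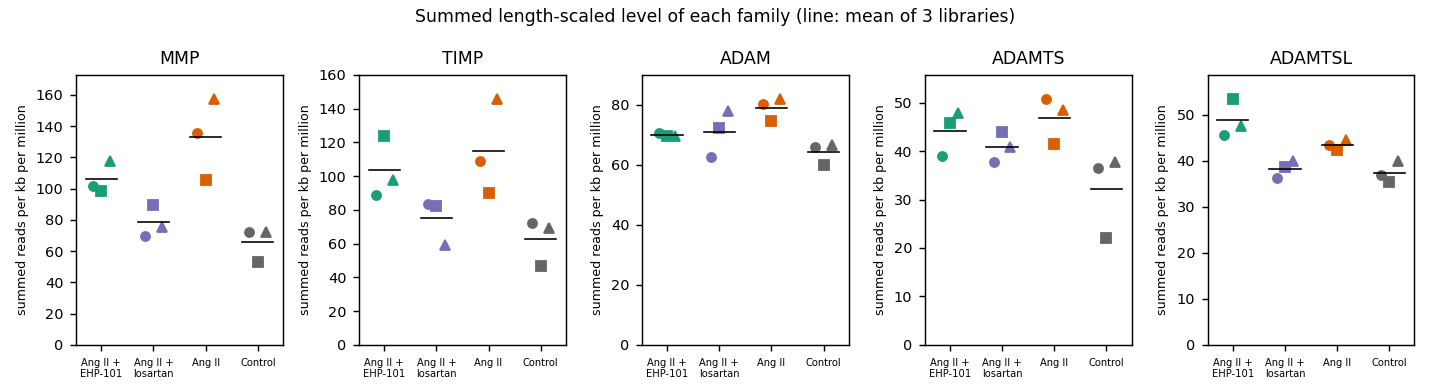
Panels show the sum over all members of each family in RPKM, with a marker per library, a line at the mean of 3 libraries and axes that start at 0. Per length, mean MMP and TIMP sums are highest in Ang II hearts and lowest in Control hearts, and all Ang II markers lie above all Control markers in both panels.

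Genes that work with these proteases were counted from lists of their known partners. Of the tested ADAMTS proteoglycan substrates 1 of 5 was called under Ang II, where 0.515% of all tested genes were called higher: Bgn (biglycan) averaged 829.9 ± 196 CPM in Ang II hearts and 357 ± 83.9 CPM in Control hearts (log2 fold change 1.22 ± 0.24, edgeR adjusted p = 0.0471). Acan, Vcan and Fmod had log2 fold changes of 2.98 ± 0.72, 0.91 ± 0.29 and 2.16 ± 0.75 without a call. Of 8 broad protease inhibitors 1 was called, against the same 0.515%, namely Serpina3n, at 90.5 ± 47.7 CPM in Ang II hearts and 16 ± 1.05 CPM in Control hearts (log2 fold change 2.50 ± 0.45, edgeR adjusted p = 0.0334). None of 6 tested plasminogen system genes was called by edgeR and 3 had an unadjusted p under 0.05, with Serpine2 (protease nexin-1) at 0.82 ± 0.20. Likewise 0 of 5 procollagen C-proteinases and enhancers, 0 of 6 matrix cathepsins, 0 of 19 ligands and receptors shed by ADAMs, 0 of 11 MMP activators and surface regulators and 0 of 8 partners of ADAM10 and ADAM17 were called by edgeR, with 3, 3, 5, 4 and 0 genes of these lists under an unadjusted p of 0.05. All were higher in Ang II hearts except 1 MMP activator or regulator, where 9.09% of all genes were higher and 8.53% lower at that p. The gene of smallest p in each was Bmp1 at 0.73 ± 0.17, Ctsk (cathepsin K) at 1.35 ± 0.29, Ereg (epiregulin) at 2.36 ± 0.52, Pcsk5 at 0.94 ± 0.25 and Tspan5 at 0.37 ± 0.18 on the log2 scale. Under EHP-101 or losartan against Ang II 0 genes of these lists were called by edgeR.

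Fibroblasts are a known source of matrix proteases, and their markers were read beside the family. Of 8 activated fibroblast markers 5 were called higher in Ang II hearts than in Control hearts (Cilp, Tnc, Thbs4, Cthrc1 and Postn), where 0.515% of all tested genes were called higher. Their list summed to 1187 to 1596 CPM in Ang II + EHP-101 hearts, 528 to 1022 CPM in Ang II + losartan hearts, 1295 to 1987 CPM in Ang II hearts and 380 to 421 CPM in Control hearts. Of 10 general fibroblast markers 2 were called higher, against the same 0.515%, and the list summed to 4045 to 4328 CPM in Ang II + EHP-101 hearts, 3006 to 3737 CPM in Ang II + losartan hearts, 4220 to 5429 CPM in Ang II hearts and 2409 to 4108 CPM in Control hearts. Against Ang II hearts 0 markers of these lists were called. At an unadjusted p under 0.05, 6 of 8 activated and 7 of 10 general markers were lower under losartan, against 6.14% of all genes. Under EHP-101 2 of 8 and 2 of 10 were lower, against 5.11%. Mmp2, Mmp14, Adamts2 and Timp1 had the same order of group means as the activated fibroblast sum, and the part of cell numbers in their levels was not tested. These 4 were named because they were called higher in Ang II than in Control, which fixed that part of the order. Among the 52 tested members, the Ang II mean was the highest in 32 and the Control mean the lowest in 34. No marker of either list was at 0 reads. Of 7 smooth muscle and pericyte markers 0 were called by edgeR and 5 were higher in Ang II hearts than in Control hearts at an unadjusted p under 0.05, against 9.09% of all genes. They summed to 1408 to 1563 CPM in Ang II + EHP-101 hearts, 1332 to 1503 CPM in Ang II + losartan hearts, 1329 to 1485 CPM in Ang II hearts and 792 to 1244 CPM in Control hearts. Of 9 cardiomyocyte markers 0 were called by edgeR and 4 were lower in Ang II hearts at that p, against 8.53% of all genes, with sums of 55920 to 67250 CPM in Ang II hearts and 65520 to 72820 CPM in Control hearts. Their part in the family's levels was not tested.

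Mmp9, Mmp12 and Mmp8 are known from leukocytes, so leukocyte markers are given beside them. Macrophage markers (8 tested, 0 called by edgeR under Ang II, EHP-101 or losartan in the first 3 comparisons) summed to 213 to 407 CPM in Ang II + EHP-101 hearts, 340 to 489 CPM in Ang II + losartan hearts, 461 to 601 CPM in Ang II hearts and 430 to 594 CPM in Control hearts. Monocyte markers (4 tested) summed to 5.38 to 13.3 CPM in Ang II + EHP-101 hearts, 7.93 to 15.9 CPM in Ang II + losartan hearts, 15.0 to 37.3 CPM in Ang II hearts and 5.44 to 7.27 CPM in Control hearts, and 1 of them, Ccr2, was called higher in Ang II than in Control, against 0.515% of all genes. Neutrophil markers summed to 3.81 to 14.3 CPM in Ang II + EHP-101 hearts, 5.36 to 17.4 CPM in Ang II + losartan hearts, 8.39 to 13.6 CPM in Ang II hearts and 4.13 to 10.1 CPM in Control hearts, with Ly6g at 2 reads in all. At an unadjusted p under 0.05, 4 of 8 macrophage, 3 of 4 monocyte and 1 of 5 tested neutrophil markers were lower under EHP-101 than in Ang II hearts. Of all genes 5.11% were. Under losartan 2, 3 and 0 were lower, against 6.14% of all genes, and 0 were higher under either treatment. Of B cell, mast cell and T cell markers, 4 of 5, 4 of 5 and 1 of 4 tested were lower under EHP-101 at that p, against 5.11%. Under losartan 0, 3 and 0 of these were lower, against 6.14%. Macrophage markers lower without overlap numbered 4 under EHP-101 and 5 under losartan, against 9.74% and 10.5% of all genes. None of these lists has a marker at 0 reads over the 12 libraries, and their part in the Mmp9, Mmp12 and Mmp8 values was not tested.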

How the data were processed

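Read counts per gene of 12 mouse heart libraries were used as the authors deposited them. Per the labels' protocols, poly(A) RNA from 300 ng was made into libraries with an unstranded kit and sequenced as single 50 bp reads. Per the submitters' processing notes, fastp 0.20.0, HISAT2 2.1.0, featureCounts 2.0.0 and edgeR 3.30.0 were used with GRCm38, and the settings are not given in the sources used here. Symbols came with 47224 of 47729 genes, and lengths and positions from GENCODE M21. Groups were read from sample titles.

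Counts were tested with edgeR 4.0.16 in R 4.3.3: filterByExpr left 15336 genes, libraries were scaled by TMM, and a robust quasi-likelihood model with a mean per group gave two-sided F tests, adjusted by Benjamini-Hochberg over all tested genes at 0.05. The SE is the log2 fold change divided by the square root of F, so it restates the test. CPM used TMM-scaled totals, RPKM divided CPM by exon length, and SD is over 3 libraries. No 2 libraries of the same group were duplicates. The labels do not say what replicate numbers share, and same-numbered deviations correlated above 0.1 in all 3 pairs for Ang II + EHP-101 and Control alone (r = 0.221, 0.226 and 0.10), so pairing there comes from the data only. Calls were tested on simulated data. Promoter sequences are RefSeq's (GRCm38.p6), with 53 of 84 members matched. Of 49 members checked that have a single window, 35 had a transcript start equal to the RefSeq gene start. The count minimum was 10 reads per library of median size.

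Named genes were those called, the 6 of smallest p in each comparison, the 10 highest per length, and a list of well-known members. The members, lists and tests were chosen with earlier results of these data known. Alternatives were DESeq2 1.42.0, limma-voom 3.58.1, other scalings and filters, a replicate block, the 2 groups alone, quality weights, an atrial score as covariate, and each library left out.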

Additional observations from a re-analysis of the deposited data

How the results depend on the processing

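For Ang II against Control, 4 members were called, and 14 were called by DESeq2, 19 by limma-voom with quality weights (18 higher), 7 with no filter on low counts, 0 with the 2 groups alone, and 0 to 5 with 1 library left out. Over all genes, 83 of 15336 were called in the main fit. DESeq2 called 513 of 28674, and 13418 of the 28674 had no adjusted p. Quality weights called 2599 of 15336 (1464 higher), and no filter 167 of 28686. The 2 groups alone gave 20 of 14874, and 1 library left out gave 8 to 151. The count of members was 4 with RLE factors, with library size alone and at a mean of at least 5 CPM, and 3 with limma-voom. With an atrial score as covariate it was 4, with Adamts4 in and Timp1 out. For Ang II + EHP-101 against Control, 1 was called, and 7 were called by DESeq2, 8 with quality weights, 5 with no filter, 3 with the atrial score, 0 by library size alone, 0 with the 2 groups alone and 0 to 2 with 1 library left out. Quality weights called 6 of the 8 higher, and Mmp9 and Mmp15 lower. Mmp9 was also called lower without Control replicate 2. Over all genes, 61 of 15336 were called in the main fit, 492 of 28674 by DESeq2 and 477 of 15336 with quality weights. No filter gave 158 of 28686 and the atrial score 202 of 15336. For Ang II + losartan against Ang II, where 0 were called, DESeq2 called 4, quality weights 7 and no filter 1. Over all genes these settings called 108 of 28674, 609 of 15336 and 30 of 28686, in that order. For Ang II + losartan against Control, where 0 were called, DESeq2 called 1 member and 22 of 28674 genes. The other 2 comparisons had 0 members called in every setting run. Over 36 named pairs of gene and comparison, 717 values kept their direction and side of the threshold, 30 lost and 34 gained the call, and 0 reversed. The cause of these differences was not tested. With library size alone as the scaling, the median of all genes was 0.17 on the log2 scale for Ang II against Control. With a replicate block 3 members were called for Ang II against Control (Timp1 lost), Mmp2 as before for Ang II + EHP-101 against Control, and 0 elsewhere. Outside that EHP-101 and Control pair, correlations of same-numbered replicates ran from -0.327 to 0.33 and did not stay above 0.1 in any pair of groups. Members with few reads, such as Mmp9, Mmp12 and Mmp13, are limited by depth.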
